A study of Homo sapiens with 4 samples.

Results

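The 41 genes described here encode the machinery of the G2/M transition and of mitosis, and they were taken from the deposited count table by symbol. All 41 were found among its 58735 genes, and all 41 passed the filter on low counts that left 15313 genes for testing. They were measured by RNA sequencing in Hey-A8 cells, a human ovarian cancer line, with 2 shSPTLC2 libraries and 2 shCON libraries. The shSPTLC2 cells are labelled as carrying a short hairpin RNA against SPTLC2, a catalytic subunit of the serine palmitoyltransferase that begins sphingolipid synthesis, and the shCON cells as the negative control. Sample titles, genotype labels and the study design name a stable knockdown, whereas the treatment protocol describes transient plasmid transfection of hairpins against ZDHHC15 and of a scrambled hairpin, with harvest after 36 h. The labels do not say whether the cells are a pool or a clone, or whether replicates are separate cultures, so p-values measure only the spread between these libraries.

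Cells assemble the mitotic apparatus anew in each cycle, and most of its genes are transcribed late in the cycle and nearly silent in G1. Cyclin B bound to CDK1 starts mitosis, and the cyclin is then destroyed by the anaphase-promoting complex (APC/C) once the spindle checkpoint is satisfied. Transcription of many of these genes is repressed in resting cells by the DREAM complex and activated in G2 by B-MYB with the MuvB core and by FOXM1. These complexes act through a promoter element called the cell cycle genes homology region (CHR), often close to CCAAT boxes bound by NF-Y. In bulk RNA, fewer cells in G2 and mitosis and less RNA of these genes per cell cannot be told apart.

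Total counts were 14464784 and 15084966 in the shSPTLC2 libraries and 14999624 and 15017593 in the shCON libraries. SPTLC2 had 587 and 662 counts in the shSPTLC2 libraries and 871 and 884 in the shCON libraries, with a log2 fold change of -0.52 ± 0.12 (SE; adjusted p = 0.0063 in edgeR). Leaving out shSPTLC2 replicate 1 (-0.47, adjusted p = 0.13) or shSPTLC2 replicate 2 (-0.58, 0.052) ended this call, and its adjusted p ran from 0.00042 to 0.13 over the 12 alternatives. ZDHHC15, which encodes a palmitoyltransferase, had 0 counts in every library, which sets an upper limit of 0.204 and 0.195 CPM (counts-per-million) in the shSPTLC2 libraries and 0.202 and 0.206 CPM in the shCON libraries. The share of counts from the mitochondrial genome was 10.1% and 8.56% in the shSPTLC2 libraries and 5.46% and 6.39% in the shCON libraries. Of the markers of ovarian epithelium, KRT7, KRT8, KRT18 and PAX8 were present, while CDH1 had 0 counts in every library and MUC16, EMX2 and EPCAM had at most 10 counts. PAX8, a factor of the Müllerian lineage, was called higher, with 494 and 444 CPM in the shSPTLC2 libraries, against 273 and 294 CPM in the shCON libraries (log2 fold change 0.73 ± 0.11, adjusted p = 0.00044 in edgeR). With it the 5 Müllerian markers summed to 7553 and 7114 counts in the shSPTLC2 libraries and 4340 and 4523 in the shCON libraries, while WT1 (-0.30), SOX17 (0.52) and the keratin KRT19 (-0.21) were not called. The mesenchymal markers VIM, CDH2, FN1 and ZEB1 were also present, and none of them was called. They summed to 84991 and 94273 counts in the shSPTLC2 libraries and 97070 and 90161 in the shCON libraries. The 5 leukocyte markers summed to 5 and 5 counts in the shSPTLC2 libraries and 4 and 4 in the shCON libraries. The 4 endothelial markers summed to 1624 and 2035 counts in the shSPTLC2 libraries and 910 and 873 in the shCON libraries. CDH5 held most of these counts, with 1598 and 2000 in the shSPTLC2 libraries and 848 and 804 in the shCON libraries. It was called higher (log2 fold change 1.09). The others had negative estimates on at most 31 counts: PECAM1 (-1.71) was called lower, while KDR (-0.98) and VWF (-0.61) were not called. The part of the mitochondrial share and of these markers in the results was not tested.

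The promoters of 5 of the 41 genes are printed here with their CHR and CCAAT matches, for genes called lower and for genes not called. Those of CCNB1 and PTTG1 had CCAAT matches only. CCNB1 and CCNB2 encode B-type cyclins and PTTG1 encodes securin, and all of these were lower in the shSPTLC2 libraries. CDC20, which activates the APC/C, and PLK1, a kinase that drives mitotic entry, were not called. Each sequence runs from 250 bases before to 50 after the start site in RefSeq (GRCh38.p14), on the plus strand, 5′ to 3′, and is the first promoter listed for its gene. Capitals mark CHR matches, TTTGAA on either strand (TTCAAA when read on the other) or TTCGAA, and CCAAT matches on either strand (ATTGG when read on the other). The coordinates are chr5:69166900-69167199 for CCNB1, chr15:59104896-59105195 for CCNB2, chr5:160421605-160421904 for PTTG1, chr1:43358731-43359030 for CDC20 and chr16:23678639-23678938 for PLK1.
CCNB1: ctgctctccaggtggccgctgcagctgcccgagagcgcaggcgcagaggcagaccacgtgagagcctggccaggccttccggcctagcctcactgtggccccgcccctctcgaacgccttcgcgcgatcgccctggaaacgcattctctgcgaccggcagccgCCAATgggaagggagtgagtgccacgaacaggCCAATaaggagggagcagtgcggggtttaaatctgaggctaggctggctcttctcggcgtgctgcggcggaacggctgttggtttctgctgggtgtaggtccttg
CCNB2: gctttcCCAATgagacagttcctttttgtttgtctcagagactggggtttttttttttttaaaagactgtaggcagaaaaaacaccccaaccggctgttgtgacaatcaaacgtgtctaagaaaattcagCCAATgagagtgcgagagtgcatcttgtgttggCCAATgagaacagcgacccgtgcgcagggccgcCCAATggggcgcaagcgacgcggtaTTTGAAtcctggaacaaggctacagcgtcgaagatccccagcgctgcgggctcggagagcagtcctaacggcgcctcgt
PTTG1: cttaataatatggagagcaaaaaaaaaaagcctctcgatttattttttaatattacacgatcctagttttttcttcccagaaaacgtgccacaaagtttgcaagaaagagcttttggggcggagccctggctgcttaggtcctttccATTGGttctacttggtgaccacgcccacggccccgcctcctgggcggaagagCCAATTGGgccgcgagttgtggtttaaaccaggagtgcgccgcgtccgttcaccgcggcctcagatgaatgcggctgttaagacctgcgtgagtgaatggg
CDC20: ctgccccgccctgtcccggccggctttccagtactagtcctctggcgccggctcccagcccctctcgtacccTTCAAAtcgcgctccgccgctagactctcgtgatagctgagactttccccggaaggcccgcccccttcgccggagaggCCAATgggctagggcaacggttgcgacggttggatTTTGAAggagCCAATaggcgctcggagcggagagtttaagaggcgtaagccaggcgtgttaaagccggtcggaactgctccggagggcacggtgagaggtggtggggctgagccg
PLK1: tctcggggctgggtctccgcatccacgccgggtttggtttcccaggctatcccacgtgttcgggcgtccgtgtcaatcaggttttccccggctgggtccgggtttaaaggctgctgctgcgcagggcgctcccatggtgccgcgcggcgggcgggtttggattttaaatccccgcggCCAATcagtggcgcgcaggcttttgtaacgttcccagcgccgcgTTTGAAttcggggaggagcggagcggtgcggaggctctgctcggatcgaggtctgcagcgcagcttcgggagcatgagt

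CCNB2 and PLK1 each had a CHR match 29 bases before the start site. CDC20 had 2, at 178 and 65 bases before it, and the CCNB1 and PTTG1 windows held neither TTTGAA nor TTCGAA on either strand. Other forms of the CHR were not searched. CCAAT matches lay 87 and 55 bases before the start of CCNB1 and 73 before that of PLK1. In PTTG1 the match at 51 bases on the plus strand overlaps the one at 48 bases on the minus strand.

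The RefSeq table held a promoter for 34 of the 41 genes, all but AURKA, FOXM1, BUB3, TTK, UBE2C, BIRC5 and TPX2. A CHR match was found in 25 of these 34 windows (73.5%), against 54 of 120 (45%) for other genes of G2/M and mitosis, 1163 of 10425 (11.2%) for tested genes and 4539 of 27305 (16.6%) for all promoters of the table. A CCAAT match was found in 26 of 34 (76.5%), against 66 of 120 (55%) for the other genes of G2/M and mitosis, 36.4% of tested genes and 35.7% of all promoters. Both lay in 21 of 34 windows (61.8%), against 34 of 120 (28.3%) for those other genes, 4.76% of tested genes and 6.58% of all promoters. CHR matches were in 6 of 9 windows of genes called lower (66.7%) and in 19 of 25 windows of genes not called (76%), and CCAAT matches in 6 of 9 and in 20 of 25 (80%). A match is a description of the letters and does not show that a factor binds there. Only TTTGAA and TTCGAA were counted as a CHR, so a window without a match may hold another form of it.

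**Figure D1:**
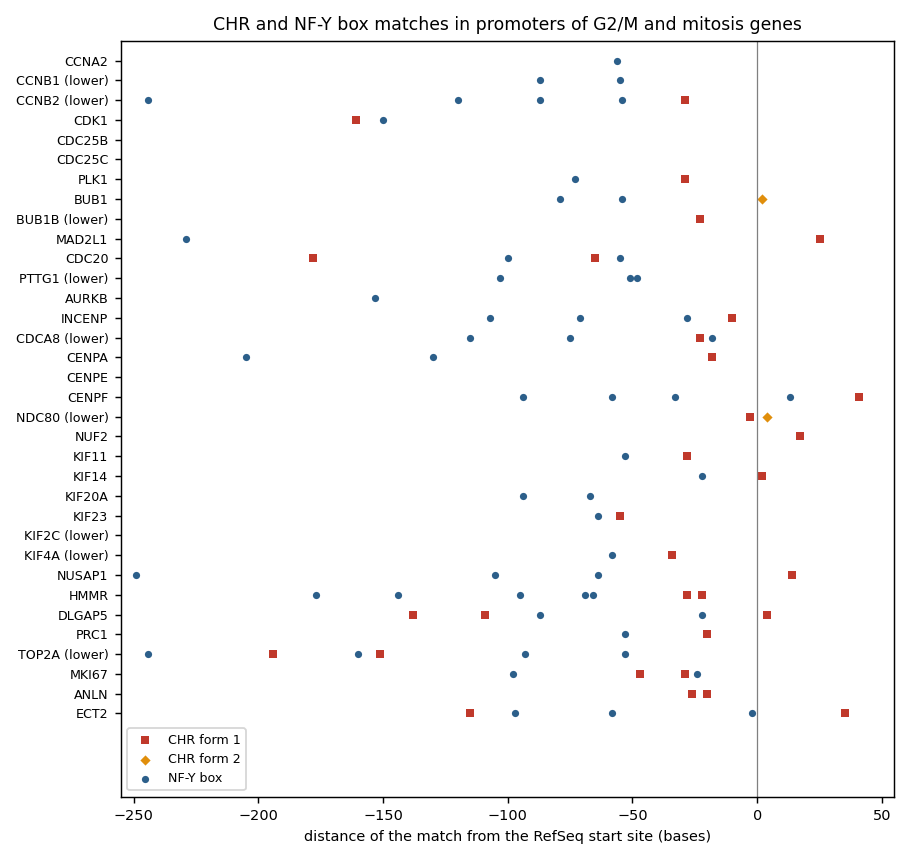
Positions of CHR matches (squares for the first form, diamonds for the second) and of the NF-Y box, the CCAAT match (circles), relative to the RefSeq start site, in bases on the x axis, for the 34 genes with a promoter in the table. Matches of both kinds lie in 21 rows, of which 4 belong to the 9 genes called lower in shSPTLC2 (marked) and 17 to the 25 genes not called.

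Of the 41 genes, 11 fell in shSPTLC2 cells and 0 rose, at an adjusted p under 0.05 (edgeR's quasi-likelihood F test, Benjamini-Hochberg adjustment over all tested genes). The share called lower was 26.8%, beside 9.00% of all 15313 tested genes. The share called higher was 0%, beside 10.4% of all tested genes. The genes that fell encode both B-type cyclins (CCNB1, CCNB2), securin (PTTG1), the checkpoint proteins BUB1B and BUB3, survivin and borealin of the chromosomal passenger complex (BIRC5, CDCA8), the kinetochore protein NDC80, the kinesins KIF2C and KIF4A, and topoisomerase II alpha (TOP2A). Their log2 fold changes ran from -0.65 to -0.32, with a median of -0.50, which is 70.9% of the shCON level.

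The lower values were not confined to the 11 called genes. The log2 fold change was negative for 37 of 41 genes (90.2%), beside 49.5% of all tested genes. When libraries were scaled by their totals it was negative for 34 of 41, and the share over all tested genes was not computed for that scaling. The median of the 41 was -0.25, or 83.9% of the shCON level, beside 0.0049 over all tested genes. The transcripts of the 41 had a median GC content of 43.2%, beside 48% for all tested genes, and the median log2 fold change was -0.20 after a correction for GC content. At an unadjusted p under 0.05 in edgeR, 22 genes were lower and 0 higher, beside 2437 lower and 2644 higher of all 15313 tested genes. DESeq2 called 10 genes lower and 0 higher, beside 6.62% and 6.86% of all tested genes. With limma-voom 11 genes were lower and 0 higher, beside 8.95% and 10.4% of all tested genes. Both shSPTLC2 libraries lay below both shCON libraries for 26 genes (63.4%), beside 30.2% of all tested genes. CENPA was the 1 gene with both shSPTLC2 libraries above both shCON libraries (2.44%, beside 31.3%), and the groups overlapped for the other 14. Scaling by library totals changed the split over all tested genes to 6.75% lower and 12.6% higher, and 9 of the 41 genes were then called lower and 0 higher.

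Summed over the 41 genes, expression was 4225 and 4136 CPM in the shSPTLC2 libraries, against 5025 and 4756 CPM in the shCON libraries. The 11 called genes summed to 1184 and 1166 CPM in the shSPTLC2 libraries, against 1614 and 1584 CPM in the shCON libraries. The 30 genes not called summed to 3042 and 2970 CPM in the shSPTLC2 libraries, against 3412 and 3172 CPM in the shCON libraries. Neither the sum of the 41 nor that of the 30 overlapped between the groups, while the gap for the 11 follows from their having been chosen as lower. The replicates of a group also differed as a set: 29 of the 41 genes were higher in shCON replicate 1 than in shCON replicate 2, whereas 22 of 41 were higher in shSPTLC2 replicate 1 than in shSPTLC2 replicate 2. The count of genes called lower depended on which library was left out: 1 gene was called without shSPTLC2 replicate 1 and 3 genes were called without shSPTLC2 replicate 2, where 1.41% and 2.49% of all tested genes were called lower. It was 15 without shCON replicate 1 and 16 without shCON replicate 2, where 12.6% and 9.69% of all tested genes were called lower.

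**Figure D2:**
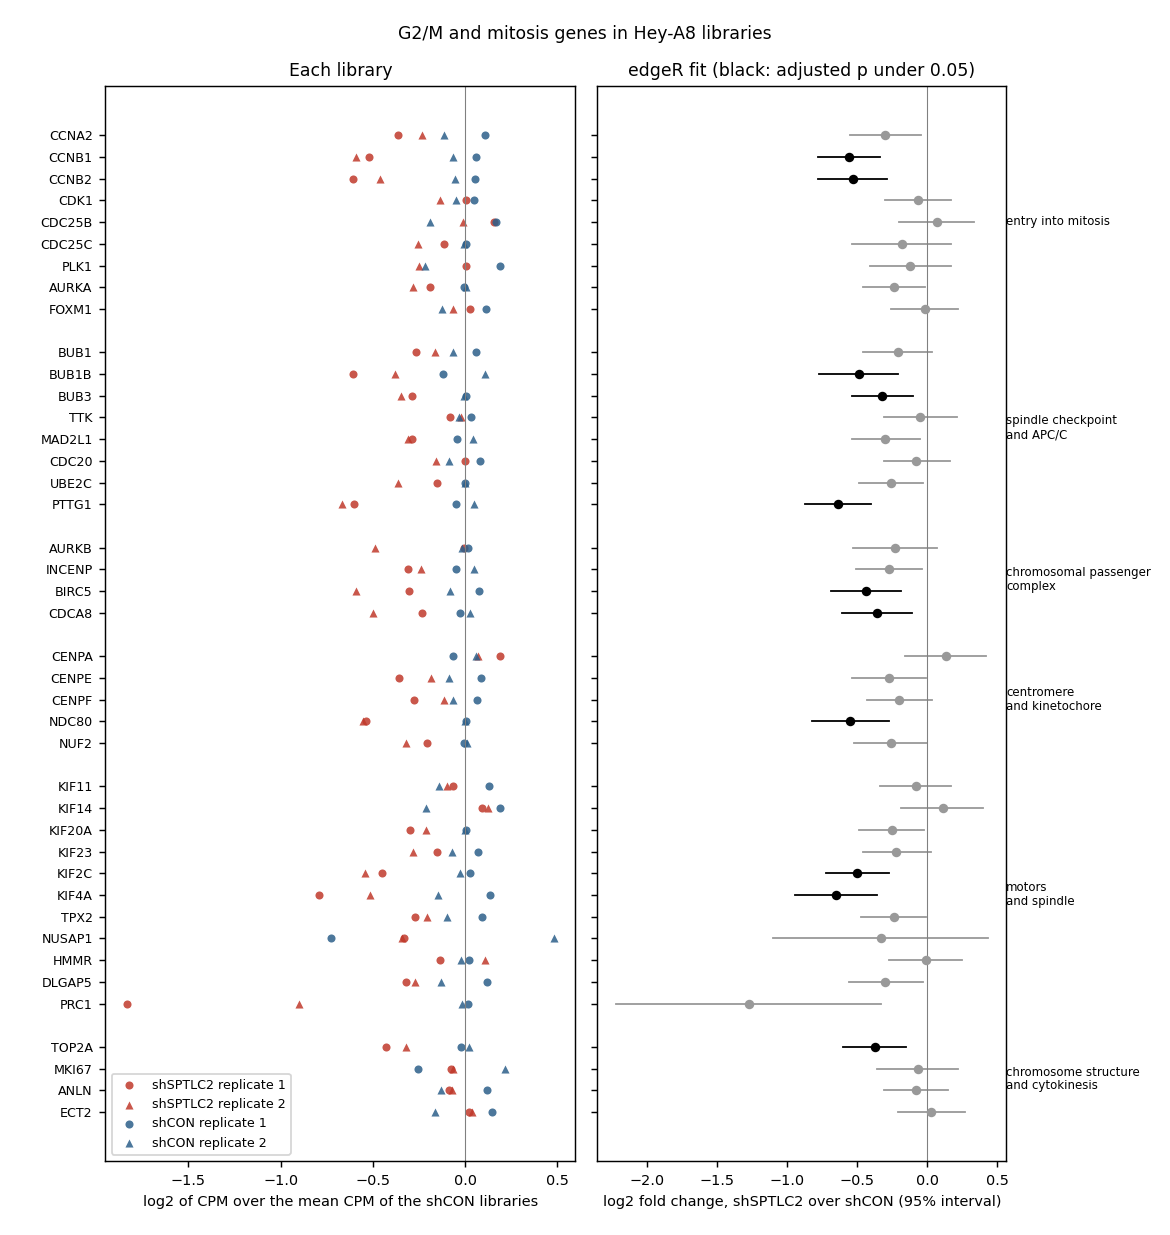
Left, log2 of each library's CPM over the mean of the shCON libraries for the 41 genes, grouped by role; right, the edgeR log2 fold change of shSPTLC2 over shCON with its 95% interval, black where called. The 11 black points lie between -0.65 and -0.32, and 37 of the 41 points lie left of 0.

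**Figure D3:**
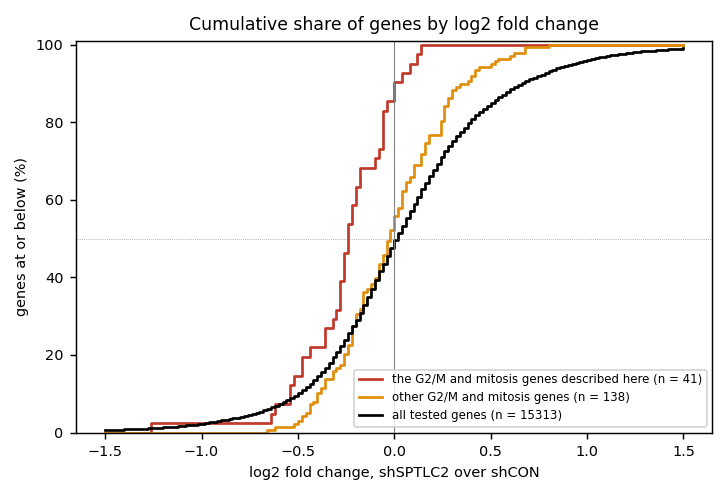
Share of genes (y axis, %) with a log2 fold change of shSPTLC2 over shCON at or below the value on the x axis. The curve of the 41 genes lies left of the other curves around its median of -0.25, while the other 138 G2/M and mitosis genes have a median of -0.034 and all 15313 tested genes one of 0.0049.

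Among the 9 genes of mitotic entry, 2 fell (22.2%, beside 9.00% of all tested genes), 0 rose (beside 10.4%) and 7 were not called. Their median log2 fold change was -0.18. Each role holds few genes, and differences between roles were not tested. CCNB1 (ENSG00000134057) lies on hg38 chromosome 5, 69167010 to 69178245 and encodes the main mitotic partner of CDK1. It was at 170.1 and 162 CPM in the shSPTLC2 libraries, against 255 and 234 CPM in the shCON libraries. The log2 fold change of CCNB1 was -0.56 ± 0.10 (SE, with adjusted p = 0.002 in edgeR). CCNB2 (ENSG00000157456) lies on hg38 chromosome 15, 59105078 to 59125045 and encodes the other of these B-type cyclins. It was at 50.3 and 55.6 CPM in the shSPTLC2 libraries, against 79.3 and 73.8 CPM in the shCON libraries, a log2 fold change of -0.53 ± 0.12 (adjusted p = 0.0052 in edgeR). For both cyclins each shSPTLC2 library lay below each shCON library, as in 30.2% of all tested genes. CCNB1 lost its call when shSPTLC2 replicate 1 (adjusted p = 0.056) or shSPTLC2 replicate 2 (0.059; 3e-07 to 0.059 over the 12 alternatives) was left out, and CCNB2 on leaving out shSPTLC2 replicate 1 (0.14; 7.1e-05 to 0.14).

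CCNA2, the cyclin of S and G2 phase, had 65.3 and 71.4 CPM in the shSPTLC2 libraries, against 90.4 and 77.6 CPM in the shCON libraries, with a log2 fold change of -0.30 ± 0.12 (adjusted p = 0.088 in edgeR). It was called without shCON replicate 2 (adjusted p = 0.0067; 0.0067 to 0.46 over the alternatives). The kinase that the B-type cyclins activate, CDK1, had a log2 fold change of -0.064 with a 95% interval of -0.30 to 0.17. FOXM1, the transcription factor of the G2 programme, had -0.018 (-0.26 to 0.22), which became 0.035 when libraries were scaled by their totals. For these 2 genes the interval leaves out a fall as large as that fitted for CCNB1. CDC25C, a phosphatase that activates CDK1, had 11.7 and 10.6 CPM in the shSPTLC2 libraries, against 12.7 and 12.6 CPM in the shCON libraries (log2 fold change -0.18, adjusted p = 0.48 in edgeR). The remaining 3 were the phosphatase CDC25B (0.069), PLK1 (-0.12) and the spindle pole kinase AURKA (-0.24), of which PLK1 was called without shCON replicate 2 (adjusted p = 0.034; 0.034 to 1 over the alternatives).

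Among the 8 genes of the spindle checkpoint and the APC/C, 3 fell (37.5%, beside 9.00% of all tested genes) and 0 rose (beside 10.4%). All 8 log2 fold changes were negative, and the median was -0.28. With library totals the value of the checkpoint kinase TTK was 5e-05. PTTG1 (ENSG00000164611) lies on hg38 chromosome 5, 160421822 to 160428744, and its product securin holds separase inactive until the APC/C destroys it. PTTG1 was at 57.1 and 54.5 CPM in the shSPTLC2 libraries, against 83.7 and 89.6 CPM in the shCON libraries. The log2 fold change of PTTG1 was -0.64 ± 0.11, with the smallest adjusted p of the 41 genes (0.0014 in edgeR). It was the 1 gene of the 41 called under all 12 alternatives (adjusted p 7.2e-07 to 0.042), and its near-identical copies PTTG2 and PTTG3P had 0 counts in every library.

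BUB1B encodes BUBR1, part of the inhibitor that holds back the APC/C, and had 34.7 and 40.7 CPM in the shSPTLC2 libraries, against 48.7 and 57.1 CPM in the shCON libraries. Its log2 fold change was -0.49 ± 0.13 (adjusted p = 0.017 in edgeR), and 10.2% of its exon bases are shared with the readthrough gene BUB1B-PAK6. BUB3, its binding partner, had 209.8 and 201 CPM in the shSPTLC2 libraries, against 257 and 255 CPM in the shCON libraries, a log2 fold change of -0.32 ± 0.10 (adjusted p = 0.038). For both genes each shSPTLC2 library lay below each shCON library, as in 30.2% of all tested genes. Leaving out shSPTLC2 replicate 1 (adjusted p = 0.25 for BUB1B and 0.22 for BUB3) or shSPTLC2 replicate 2 (0.054 for BUB1B and 0.29 for BUB3) ended both calls, and over the 12 alternatives the adjusted p ran from 0.00012 to 0.25 for BUB1B and from 0.014 to 0.29 for BUB3. BUB3 was also not called with library totals (0.089), with a correction for GC content (0.061) or with that correction and the replicate block (0.087).

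MAD2L1, which encodes the checkpoint protein MAD2, had 47.6 and 46.8 CPM in the shSPTLC2 libraries, against 56.4 and 59.8 CPM in the shCON libraries (log2 fold change -0.30, adjusted p = 0.082 in edgeR). UBE2C, the ubiquitin-conjugating enzyme of the APC/C, had 125 and 108 CPM in the shSPTLC2 libraries, against 139 and 139 CPM in the shCON libraries (-0.26, adjusted p = 0.11). Both were lower in each shSPTLC2 library than in each shCON library without passing the test, and MAD2L1 was called without shCON replicate 1 (adjusted p = 0.039; 0.039 to 0.33 over the alternatives). Of all tested genes, 30.2% likewise had both shSPTLC2 libraries below both shCON libraries. CDC20, the APC/C activator that the checkpoint restrains, had 318 and 285 CPM in the shSPTLC2 libraries, against 337 and 300.1 CPM in the shCON libraries. The groups overlapped for CDC20. Its log2 fold change was -0.078, with an interval of -0.31 to 0.16. The checkpoint kinases BUB1 and TTK had -0.21 and -0.054.

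All 4 genes of the chromosomal passenger complex had negative log2 fold changes, with a median of -0.32. The complex corrects faulty attachments of chromosomes to the spindle. Of its 4 genes, 2 fell (50%, beside 9.00% of all tested genes) and 0 rose (beside 10.4%). BIRC5, or survivin, had 119 and 97.7 CPM in the shSPTLC2 libraries, against 155 and 139 CPM in the shCON libraries, a log2 fold change of -0.44 ± 0.12 (adjusted p = 0.016 in edgeR). CDCA8, or borealin, had 77.9 and 64.8 CPM in the shSPTLC2 libraries, against 89.96 and 93.4 CPM in the shCON libraries, a log2 fold change of -0.36 ± 0.12 (adjusted p = 0.041). For both genes shSPTLC2 replicate 2 was the lowest of the 4 libraries. The scaffold INCENP had 66.9 and 70.2 CPM in the shSPTLC2 libraries, against 80.05 and 85.8 CPM in the shCON libraries (-0.27, adjusted p = 0.094). The catalytic subunit AURKB had a log2 fold change of -0.23, against -0.48 without shSPTLC2 replicate 1 and -0.011 on leaving out shSPTLC2 replicate 2; it was called in neither.
BIRC5 lost its call when shSPTLC2 replicate 1 (adjusted p = 0.061) or shSPTLC2 replicate 2 (0.26; 5.6e-05 to 0.26 over the alternatives) was left out, as did CDCA8 (0.098 and 0.4; 0.0067 to 0.4). That of CDCA8 also ended with library totals (0.082), with DESeq2 (0.068) and with the GC correction (0.059), under which INCENP was called instead (0.02; 0.012 to 0.42), as it was without shCON replicate 1 (0.031).

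Of the 5 centromere and kinetochore genes, 1 fell (20%, beside 9.00% of all tested genes) and 0 rose (beside 10.4%), with a median of -0.26. NDC80 encodes the subunit that couples kinetochores to microtubules. It had 22.6 and 22.3 CPM in the shSPTLC2 libraries, against 32.8 and 32.7 CPM in the shCON libraries, so that replicates differed by far less than the groups. Its log2 fold change was -0.55 ± 0.13 (adjusted p = 0.0081 in edgeR). NUF2, which forms a dimer with NDC80, had -0.26 (interval -0.52 to -0.0024) and CENPF had -0.20, neither called. CENPE, a kinetochore motor, had 40.1 and 45.2 CPM in the shSPTLC2 libraries, against 54.5 and 48.3 CPM in the shCON libraries (-0.27, adjusted p = 0.14). CENPA, the centromeric histone H3 variant, was the exception with 25 and 23 CPM in the shSPTLC2 libraries, against 21 and 22.9 CPM in the shCON libraries (0.13, interval -0.16 to 0.42). NDC80 lost its call when shSPTLC2 replicate 1 (adjusted p = 0.1) or shSPTLC2 replicate 2 (0.089; 0.0018 to 0.1 over the alternatives) was left out. CENPE was called without shCON replicate 2 (0.041), with the GC correction (0.033) and with that correction and the replicate block (0.022; 0.022 to 0.57).

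Of the 11 motor and spindle genes, 2 fell (18.2%, beside 9.00% of all tested genes) and 0 rose (beside 10.4%), with a median of -0.25. KIF2C encodes MCAK, a kinesin that takes microtubule ends apart at centromeres. It had 105 and 98.6 CPM in the shSPTLC2 libraries, against 146 and 141 CPM in the shCON libraries, a log2 fold change of -0.50 ± 0.10 (adjusted p = 0.0043 in edgeR). KIF4A encodes a chromokinesin that works on chromosome arms and in the midzone of the anaphase spindle. It had 32.2 and 39 CPM in the shSPTLC2 libraries, against 61.2 and 50.4 CPM in the shCON libraries, a log2 fold change of -0.65 ± 0.14 (adjusted p = 0.0044). KIF4A was the lowest relative to shCON of the 11 called genes, and its copy KIF4B had 4 to 6 counts in every library. KIF2C lost its call when shSPTLC2 replicate 1 (adjusted p = 0.073) or shSPTLC2 replicate 2 (0.095; 6.1e-05 to 0.095 over the alternatives) was left out, and KIF4A on leaving out shSPTLC2 replicate 1 (0.13; 3e-07 to 0.13).

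TPX2, which activates Aurora A on the spindle, had 319.9 and 334 CPM in the shSPTLC2 libraries, against 411 and 361 CPM in the shCON libraries (log2 fold change -0.24, adjusted p = 0.13 in edgeR). DLGAP5, or HURP, which stabilises kinetochore fibres, had 46.2 and 47.8 CPM in the shSPTLC2 libraries, against 62.7 and 52.6 CPM in the shCON libraries (-0.30, adjusted p = 0.11). In both genes shCON replicate 1 was the highest library, and without shCON replicate 2 both were called (adjusted p = 0.011 for each; 0.011 to 0.5 and 0.011 to 0.41 over the alternatives). KIF20A and KIF23, kinesins of the central spindle, had log2 fold changes of -0.25 and -0.22. In both, each shSPTLC2 library lay below each shCON library, as in 30.2% of all tested genes. KIF11, the motor that separates the spindle poles, HMMR and KIF14 had -0.082, -0.0095 and 0.11 with overlap, and HMMR had 0.045 with library totals.

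PRC1, the bundling protein of the central spindle, had the most negative estimate of the 41 genes on very few counts. It had 8 and 16 counts in the shSPTLC2 libraries, against 29 and 28 in the shCON libraries, a log2 fold change of -1.27 ± 0.44 (adjusted p = 0.055 in edgeR). In the annotation 57.6% of its exon bases lie on the same strand within exons of AC068831.7, which had 89 and 96 counts in the shSPTLC2 libraries, against 49 and 66 in the shCON libraries (0.65, adjusted p = 0.078). The 2 estimates have opposite signs. PRC1 was called with no filter on low counts (0.049), and over the alternatives its adjusted p ran from 0.043 to 0.37 and its log2 fold change from -1.82 without shSPTLC2 replicate 2 to -0.89 without shSPTLC2 replicate 1. NUSAP1, a spindle microtubule protein, had 107 and 111 counts in the shSPTLC2 libraries, against 82 and 186 in the shCON libraries, so the shCON replicates lay on either side of both shSPTLC2 libraries. Its log2 fold change was -0.33 ± 0.34, with -0.82 without shCON replicate 1 (adjusted p = 0.0016; 0.0016 to 0.78 over all 12 alternatives) and 0.38 without shCON replicate 2. It shares 62.2% of its exon bases with AC087721.2, which had 0 counts in every library. PRC1 and NUSAP1 were the 2 genes of the 41 that share over 50% of their exon bases with another gene (4.88%, beside 2.19% of tested coding genes), so their values are uncertain.

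The last 4 genes act on chromosome structure and in cytokinesis. Among them 1 fell (25%, beside 9.00% of all tested genes) and 0 rose (beside 10.4%), with a median of -0.074. TOP2A, which untangles sister chromatids, had 306 and 329.7 CPM in the shSPTLC2 libraries, against 405 and 418 CPM in the shCON libraries. Its log2 fold change was -0.37 ± 0.11 (adjusted p = 0.022 in edgeR). TOP2A lost its call when shSPTLC2 replicate 1 (adjusted p = 0.28) or shSPTLC2 replicate 2 (0.13; 0.0011 to 0.28 over the alternatives) was left out. MKI67, the gene of the proliferation marker Ki-67, was chosen for display after its values were seen: it had 281 and 283 CPM in the shSPTLC2 libraries, against 248 and 344 CPM in the shCON libraries. The shSPTLC2 libraries thus lay between the shCON libraries, and the log2 fold change of -0.069 became -0.29 without shCON replicate 1 (adjusted p = 0.026; 0.026 to 0.98 over all 12 alternatives) and 0.18 without shCON replicate 2. The cytokinesis genes ANLN and ECT2 had -0.08 and 0.029, with overlap.

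Levels per transcript length differed far more between the genes than between the groups. On the FPKM scale (fragments per kilobase of transcript, scaled to library size), CDC20 was highest, with 154 and 139 in the shSPTLC2 libraries, against 166 and 146 in the shCON libraries. UBE2C followed with 95.7 and 83.4 FPKM in the shSPTLC2 libraries, against 108 and 107 in the shCON libraries, and TPX2 with 87.7 and 91.9 in the shSPTLC2 libraries, against 114 and 99.5 in the shCON libraries. The ranges of UBE2C and TPX2 overlapped, so their order is not resolved. CCNB1 had 65.7 and 62.7 FPKM in the shSPTLC2 libraries, against 99.7 and 90.9 in the shCON libraries, and was the 1 called gene among the 4 highest. At the low end PRC1 had 0.0973 and 0.187 FPKM in the shSPTLC2 libraries, against 0.354 and 0.345 in the shCON libraries. NUSAP1 had 2.5 and 2.5 in the shSPTLC2 libraries, against 1.93 and 4.41 in the shCON libraries. Both genes share over 50% of their exon bases with another gene, so their low levels are uncertain. CDC25C had 3.46 and 3.16 FPKM in the shSPTLC2 libraries, against 3.82 and 3.74 in the shCON libraries. CENPE had 4.19 and 4.74 in the shSPTLC2 libraries, against 5.78 and 5.08 in the shCON libraries. By mean FPKM the called genes lay between NDC80 (7.62) and CCNB1 (79.8). None of the genes above or below these levels was called, in a range from PRC1 (0.246) to CDC20 (151).

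**Figure D4:**
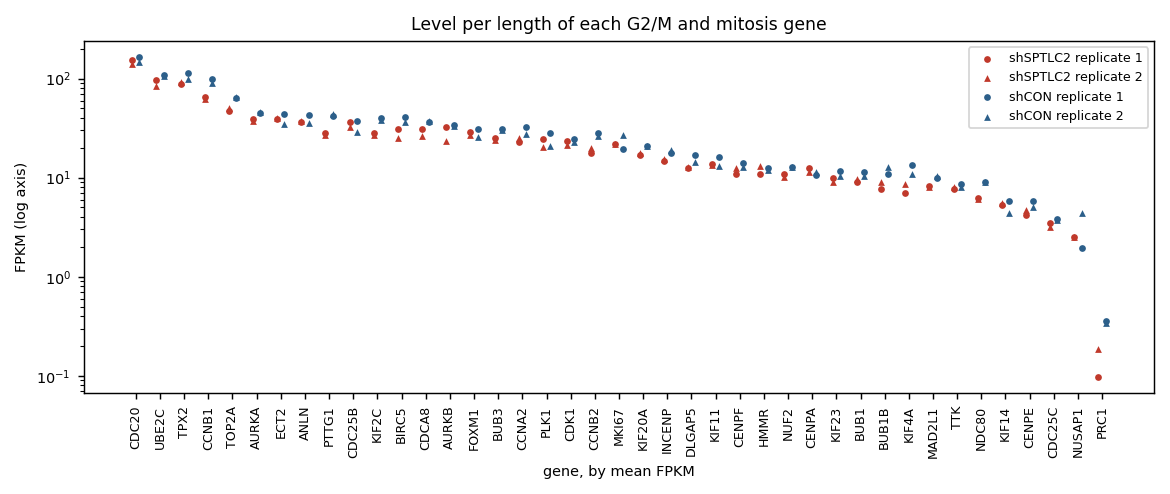
FPKM of the 41 genes in each library on a log axis, in order of their mean. CDC20 is highest at 139 to 166 FPKM and PRC1 lowest at 0.0973 to 0.354 FPKM. PRC1 and NUSAP1 share over 50% of their exon bases with another gene, so their levels are uncertain.

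Another 138 tested genes of the same processes, outside the 41, were called in either direction about as often as tested genes in general. Of these, 12 fell (8.7%, beside 9.00% of all tested genes), 11 rose (7.97%, beside 10.4%) and 115 were not called, with a median of -0.034; 7 were lower and 14 higher when libraries were scaled by their totals. Of 12 genes of the MuvB core, DREAM and B-MYB, 0 fell and 3 rose (25%, beside 10.4% of all tested genes), with a median of 0.21. The difference between these lists was not tested. MYBL2, which encodes B-MYB, had 137 and 121 CPM in the shSPTLC2 libraries, against 100.2 and 84.2 CPM in the shCON libraries (log2 fold change 0.48 ± 0.12, adjusted p = 0.01 in edgeR). RBL2, which encodes the DREAM pocket protein p130, had 49.99 and 52.1 CPM in the shSPTLC2 libraries, against 27.8 and 36 CPM in the shCON libraries (0.68 ± 0.14, adjusted p = 0.0033), and RBL1, which encodes p107, rose by 0.40. RBL1 was not called by DESeq2 (adjusted p = 0.14) or with no filter on low counts (0.056). The MuvB genes were not called: LIN9 had 10.3 and 9.19 CPM in the shSPTLC2 libraries, against 11.4 and 11.6 CPM in the shCON libraries (-0.24), and LIN54 had 19.7 and 19.2 CPM in the shSPTLC2 libraries, against 19.4 and 15.9 CPM in the shCON libraries (0.14). Neither MYBL2 (adjusted p = 0.2; 8.3e-06 to 0.2 over the alternatives) nor RBL2 (0.053; 1.8e-07 to 0.053) nor RBL1 (0.23; 0.01 to 0.23) was called without shSPTLC2 replicate 1.

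Among the other genes of mitotic entry, PKMYT1, a kinase that inhibits CDK1, rose by 0.58 on the log2 scale. CCNF, the F-box protein cyclin F, rose by 0.52, while ENSA, which restrains a phosphatase opposing CDK1, fell by 0.40. With the GC correction PKMYT1 had 0.30 and was not called (adjusted p = 0.13; 3.4e-06 to 0.18 over the alternatives), and ENSA was not called with library totals (0.056) or with the GC correction (0.065; 1.3e-06 to 0.27). The CDK1 inhibitor kinase WEE1 had 35.6 and 36.2 CPM in the shSPTLC2 libraries, against 31.8 and 26.4 CPM in the shCON libraries (0.30, adjusted p = 0.12 in edgeR), and was called without shCON replicate 1 (0.021; 0.021 to 0.46). In the cohesin and condensin list 3 of 18 genes fell (16.7%, beside 9.00% of all tested genes), SMC1A, STAG1 and NCAPG2, and 0 rose. With library totals SMC1A alone was called, as STAG1 (adjusted p = 0.057; 0.014 to 0.2 over the alternatives) and NCAPG2 (0.052; 0.01 to 0.28) were not, and STAG1 was not called by DESeq2 (0.053). The cohesin subunit SMC1A had 45.6 and 44.9 CPM in the shSPTLC2 libraries, against 66.5 and 77.2 CPM in the shCON libraries, a log2 fold change of -0.67 ± 0.12 (adjusted p = 0.0016 in edgeR). It was the 1 gene of the 138 called under all 12 alternatives (6.8e-08 to 0.049). The APC/C scaffold gene ANAPC1 (-0.64) and the subunit gene CDC27 (-0.32) fell as well, the second not by DESeq2 (0.063) or with library totals (0.1; 0.0043 to 0.33).

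At the kinetochore the other genes went both ways: CENPH (-0.47) and MIS18A (-0.46) fell, whereas CENPK (0.60), CENPT (0.52), SPC24 (0.67), KNTC1 (0.44) and ZWILCH (0.38) rose. SPC24 belongs to the same 4-subunit complex as NDC80, and had 22.1 and 19 CPM in the shSPTLC2 libraries, against 13.2 and 12.6 CPM in the shCON libraries. NUF2 (-0.26) and SPC25 (-0.33, with 11.4 and 9.06 CPM in the shSPTLC2 libraries, against 12.7 and 12.8 CPM in the shCON libraries) were not called. SPC24 was thus the 1 gene of that complex with a positive estimate. Among spindle and cytokinesis genes CKAP5 (-0.44), CEP192 (-0.54), PCNT (-0.43) and RACGAP1 (-0.40) fell and PSRC1 (0.41) rose. DESeq2 did not call CENPH (adjusted p = 0.08), MIS18A (0.08), ZWILCH (0.11) or PSRC1 (0.11), whose values over the alternatives ran from 0.0034 to 0.29, 0.017 to 0.18, 0.0086 to 0.28 and 0.017 to 0.21, nor was CENPH called with library totals (0.051). Apart from SMC1A, each of the 22 other called genes lost its call without at least 1 of the shSPTLC2 libraries. Calls in both directions also became fewer over all tested genes when a shSPTLC2 library was left out.

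For the preceding phase of the cycle, 35 genes of G1/S and DNA replication had a median of -0.025. Of these, 4 fell (the replicative helicase genes MCM2, MCM3 and MCM6, and TYMS, which makes thymidylate) and 2 rose (CDK2, the S-phase kinase, and RRM2, a ribonucleotide reductase subunit). TYMS had 24.7 and 25 CPM in the shSPTLC2 libraries, against 37.6 and 41.2 CPM in the shCON libraries, and CDK2 had 69.3 and 65.8 CPM in the shSPTLC2 libraries, against 50.6 and 48.7 CPM in the shCON libraries. The share called lower was 11.4% and the share called higher 5.71%, beside 9.00% and 10.4% of all tested genes.

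**Figure D5:**
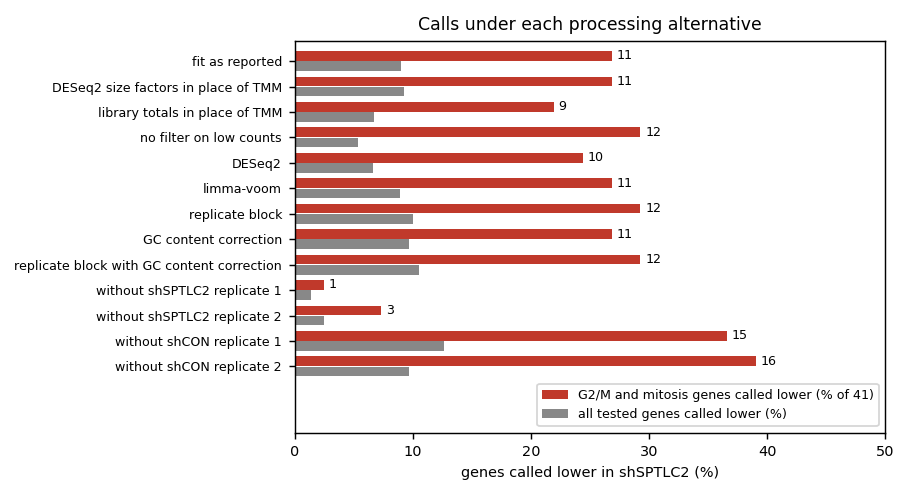
Share of the 41 genes (red, with the number of genes) and of all tested genes (grey) called lower in shSPTLC2, in %, under each way of processing the counts. The number lay between 9 and 12 of 41 with all 4 libraries, at 1 and 3 without a shSPTLC2 library and at 15 and 16 without a shCON library.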

How the data were processed

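RNA sequencing of Hey-A8 cells gave 2 shSPTLC2 and 2 shCON libraries, prepared with a NEBNext Ultra RNA kit per the labels. The authors deposited raw read counts per gene, and FPKM values that equal each count over gene length and a library factor. Per the submitters' processing notes, build hg38 was used with HISAT2, SAMtools and StringTie, with the counting program and strandedness not given in the sources used here. Reads of overlapping and antisense genes therefore cannot be told apart.

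Counts of all 4 libraries were fitted in R 4.3.3 with edgeR 4.0.16: filterByExpr (minimum count 10, minimum total 15), TMM scaling, robust quasi-likelihood fit, two-sided F test, Benjamini-Hochberg adjustment over 15313 genes, calls at an adjusted p under 0.05. The SE is the log2 fold change, without its sign, divided by the root of F. CPM are scaled by TMM, and 3 counts equal 0.195 to 0.206 CPM, for counting error only. The common biological coefficient of variation was 10.1%.

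The 41 genes, the other lists and the tests were chosen with earlier results of these data known. Values in every library are given for called genes, the 6 uncalled genes with the smallest adjusted p, and the 4 highest and 4 lowest by FPKM. Of the other lists, up to 4 called genes per direction were named, and MYBL2, LIN9, LIN54 and WEE1. MKI67, CENPA and SPC25 were added after their values were seen. Alternatives were DESeq2 size factors, library totals, no filter, DESeq2 1.42.0, limma-voom (limma 3.58.1), a replicate block, a GC correction (loess span 0.5), both together, and leaving out each library. Replicates of a group differed beyond sampling noise (chi-square p under 0.05 in 28.4% of genes in shSPTLC2 and 36.7% in shCON).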

Additional observations from a re-analysis of the deposited data

How the results depend on the processing

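With all 4 libraries, 9 to 12 of the 41 genes were called lower and 0 higher under every alternative run. Of 492 gene values under the 12 alternatives, 431 kept direction and side of the threshold, 24 lost the call, 15 gained it and 22 changed sign, 0 of these among called genes. Leaving out 1 library gave 1 to 16 genes called lower; a lone library was then assumed to vary like the other group. Over the same alternatives 1 to 16 of the other 138 genes were lower and 0 to 15 higher, and SPTLC2 ran from -0.58 to -0.47. With library totals, 7 of the other genes were lower. The median moved to -0.20 with library totals, with the GC correction, and with that correction and the block. Signs turned with library totals for FOXM1 (0.035), TTK (5e-05) and HMMR (0.045), with the GC correction for CDC25B (-0.044) and MKI67 (0.0046), and with correction and block for CDC25B (-0.034) and MKI67 (0.019); the cause was not tested. Signs also turned on leaving out 1 library, over ranges of -0.20 to 0.04 for ANLN, -0.11 to 0.25 for CDC25B, -0.13 to 0.0021 for CDK1, -0.12 to 0.18 for ECT2, -0.14 to 0.10 for FOXM1, -0.14 to 0.11 for HMMR, -0.22 to 0.05 for KIF11, -0.087 to 0.31 for KIF14, -0.29 to 0.18 for MKI67, -0.82 to 0.38 for NUSAP1, -0.31 to 0.089 for PLK1 and -0.0026 to 0.28 for LIN54. Libraries of the same replicate number did not deviate together over all tested genes (r = -0.0133). This value cannot show whether they were prepared as pairs. A replicate block gave 12 genes called lower, with PRC1 gained (-1.30, adjusted p = 0.043 in edgeR). PRC1 had the fewest counts of the 41 genes, at 8 to 29, and 57.6% of its exon bases lie in exons of AC068831.7 on the same strand. The cause of its low counts was not tested.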
